A study of Mus musculus with 4 samples.

Results

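Genes of extracellular proteases, cathepsins and their inhibitors were examined in cardiac endothelium, the cells that line the vessels of the heart, after lipopolysaccharide (LPS), an outer-membrane component of Gram-negative bacteria. Members were all genes whose symbol in the platform annotation begins with Serpin, Mmp, Adam or Adamts or with Cts (cathepsins), or is Timp1 to Timp4. This took 100 of the 11138 named genes on the arrays. They comprised 34 inhibitors, 30 serpins and 4 TIMPs, and 66 genes of the protease families, 18 MMPs, 22 ADAMs, 3 ADAMTS genes, 3 ADAMTS-like genes and 20 cathepsins. The ADAMTS-like genes are kept under this rule although their products lack a protease domain. Both groups go by family name and not by activity. Serpinh1 and Serpinf1, without protease inhibition, thus count as inhibitors, and Adam11, without protease activity, counts with the protease families. Of the 100 members, 95 were measured by 1 oligonucleotide and 5 by several, in 210 spots per array.

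Amplified RNA from mice injected intraperitoneally with LPS was hybridised against that from saline-injected mice on long-oligonucleotide arrays with 2 colours, 4 h and 24 h after injection. LPS RNA was in Cy5 on the first array of each time and in Cy3 on the second, a dye reversal. The labels name no strain, age, sex, dose or number of animals, nor do they say whether the reversed array used another extract. The pair of arrays of a time was therefore counted as 1 replicate, with no test of LPS against saline. A value ± SD below is the mean log2 ratio of LPS over saline and the SD of the 2 arrays (n = 2 arrays), so it covers the error of arrays and dyes but says nothing of variation among mice. A gene is called higher or lower if its ratio was 2-fold (1 log2 unit) or more on each of the 2 arrays, in the same direction.

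The direction of the deposited ratios is not stated. The arrays with LPS in Cy3 were turned in sign, because oligonucleotides whose spots agreed ran in opposite directions on the arrays of a time (r = -0.37 over 5023 at 4 h and -0.50 over 3668 at 24 h, across oligonucleotides, with the signs as deposited). Over all spots the correlations were only -0.06 and -0.06. These values bear on the turning alone and do not settle it. Dye effects particular to an oligonucleotide would also run in opposite directions if the ratios had already been turned alike. That the ratios are Cy5 over Cy3, and so LPS over saline after turning, was assumed and is settled by no value here. If the ratios ran Cy3 over Cy5, every higher would read lower. If they had already been turned alike, none of the members would be called at either time.

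Metalloproteinases and lysosomal cathepsins cut matrix and surface proteins, and vessels use them to remodel the basement membrane and to shed receptors and junction proteins. MMPs, ADAMs and ADAMTSs are zinc enzymes held in check by TIMPs, which bind the active site. Most serpins trap serine proteases of coagulation, fibrinolysis, complement and leukocyte granules by a suicide mechanism. Cathepsins work mainly in lysosomes and are also secreted by inflamed tissue, where cystatins block the cysteine-type members.

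Few members were called. At 4 h, 2 of 100 were higher, Ctsl and Timp1, and 0 lower, against 3.25% of all genes called in either direction (2.25% higher, 0.997% lower). At 24 h, 5 were higher, Ctsl, Timp3, Serping1, Adam9 and Adam24, and 2 lower, Adam15 and Adam11, against 7.0% of all genes (3.48% higher, 3.52% lower). The share of members called in either direction was thus near that of all genes at both times. In opposite directions on the arrays of a time, 0 members were 2-fold at 4 h and 0 at 24 h, where 1.42% and 3.69% of all genes were. With every single spot required to be 2-fold, 1 member was called at 4 h, against 1.57% of all genes (1.25% higher, 0.323% lower). At 24 h these were 4 higher and 2 lower, against 3.65% of all genes (1.87% higher, 1.78% lower). Calls are not tests, and the arrays differed widely, their spots having SDs of 1.59 and 0.98 at 4 h, and 1.44 and 1.44 at 24 h.

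**Figure D1:**
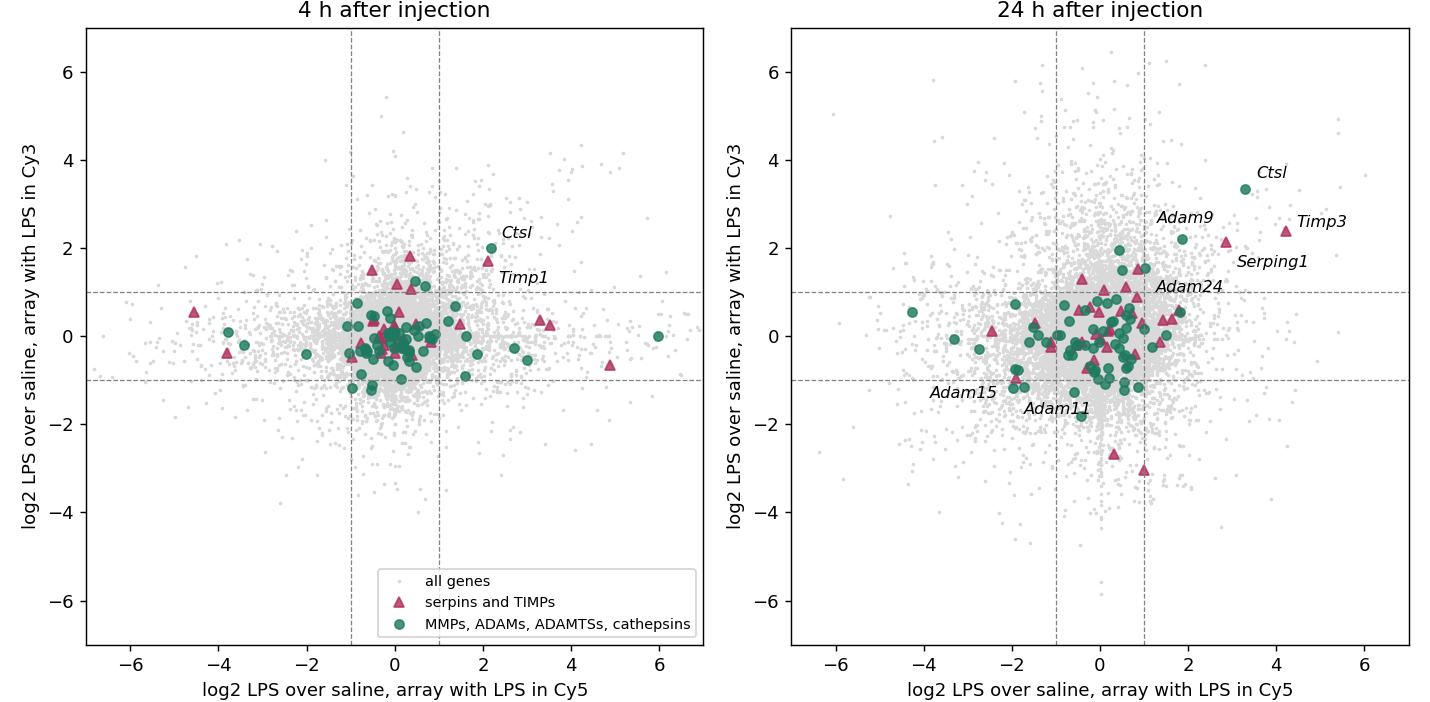
Log2 ratio of LPS over saline on the array with LPS in Cy5 (x axis) and in Cy3 (y axis), at 4 h (left) and 24 h (right). Grey points are all 11138 genes, triangles the 34 inhibitors and circles the 66 protease-family genes, and dashed lines mark 1 log2 unit. Called members are named, and of the members beyond 2 log2 units on the x axis at 4 h, only Ctsl and Timp1 lie beyond 1 on the y axis. Axes end at 7, beyond which 15 genes lay at 4 h and 2 at 24 h.

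Ctsl, which encodes cathepsin L, a lysosomal cysteine protease that also processes proteins in the cell and in the matrix, was the member with the clearest shift. Its ratios were 2.18 and 1.99 log2 units at 4 h and 3.30 and 3.34 at 24 h. All arrays were high and both of 24 h lay above both of 4 h. The means were 2.08 ± 0.13 at 4 h, a 4.24-fold difference, and 3.32 ± 0.03 at 24 h, a 9.98-fold difference. Its single spots ran from 1.85 to 2.25 at 4 h and from 3.21 to 3.46 at 24 h. Ranked by the smaller of its array values, Ctsl stood at place 56 of 11138 genes at 4 h and at place 10 at 24 h. It was the 1 member called at both times, as were 57 of all genes (0.512%). The increase of 1.24 from 4 h to 24 h was lost as a call with scale normalization of the arrays.

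The other 8 lysosomal cathepsins, a list drawn up after the values were seen, were not called. With 3.25% of all genes called at 4 h and 7.0% at 24 h, so few genes would seldom hold a call. Ctsb, a cysteine protease of similar reach, had 0.78 ± 0.62 at 4 h and 0.08 ± 0.37 at 24 h. Ctss, the cathepsin of antigen-presenting cells, had -0.06 ± 0.07 and -0.50 ± 0.25, and Ctsd, the main aspartic cathepsin, had -0.42 ± 0.93 and 0.29 ± 0.05. Ctsc, which activates granule serine proteases, had arrays that pulled apart at both times, -0.86 and 0.74 at 4 h and -0.82 and 0.69 at 24 h. Ctsh had -0.31 ± 0.74 and -1.52 ± 1.73, and Ctsk, known for collagen breakdown by osteoclasts, -0.47 ± 0.29 and -0.66 ± 1.23. Ctsa, a carboxypeptidase that also protects lysosomal enzymes, had -0.01 ± 0.64 and 0.99 ± 0.70. Ctsf, a cysteine cathepsin, had 0.00 ± 0.45 and -0.27 ± 0.65. Outside this list, the neutrophil granule serine protease Ctsg had -0.88 ± 0.49 and 0.03 ± 0.71. Over all 20 cathepsins the median was 0.00 at 4 h and -0.04 at 24 h, beside -0.02 and -0.02 over all genes.

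Of the TIMPs, Timp1 was called at 4 h and Timp3 at 24 h. Timp1, a secreted inhibitor of most MMPs, had 2.11 and 1.70 at 4 h and 0.83 and 0.90 at 24 h. Both arrays of 4 h were high, and those of 24 h lay just under 2-fold. The means were 1.90 ± 0.29, or 3.74-fold, and 0.87 ± 0.04, or 1.82-fold, and the 24 h value was lower than the 4 h value by 1.04. The 2 oligonucleotides of Timp1 disagreed at 4 h. The oligonucleotide annotated to V00755 gave 3.60 and 2.69 and that annotated to M17243 gave 0.61 and 0.71, so the 4 h call rests on the V00755 oligonucleotide. At 24 h V00755 gave 0.92 ± 0.06 and M17243 gave 0.81 ± 0.03, against 3.15 ± 0.65 and 0.66 ± 0.07 at 4 h, so the lower value at 24 h rests on V00755 alone and M17243 was not lower.

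Timp3, which binds to the extracellular matrix and also inhibits ADAMs such as ADAM17, had 0.37 and 1.07 at 4 h and 4.21 and 2.38 at 24 h. Both arrays of 24 h were far above both of 4 h. The mean was 3.30 ± 1.29 at 24 h, or 9.83-fold, and 0.72 ± 0.49 at 4 h, and the difference of 24 h over 4 h was 2.58. Its spots gave 4.27 and 4.16 on the first array of 24 h and 2.21 and 2.56 on the second. Timp2 had -0.22 ± 0.03 and 0.62 ± 0.47, and Timp4 had -0.03 ± 0.61 and 0.44 ± 1.21. At 24 h all 4 TIMPs had a mean above 0, but that of Timp4, the lowest at 0.44, came from arrays of -0.42 and 1.29. The other 3 lay above 0 on both arrays, as did 2911 of all 11138 genes, and so small a family was not tested.

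**Figure D2:**
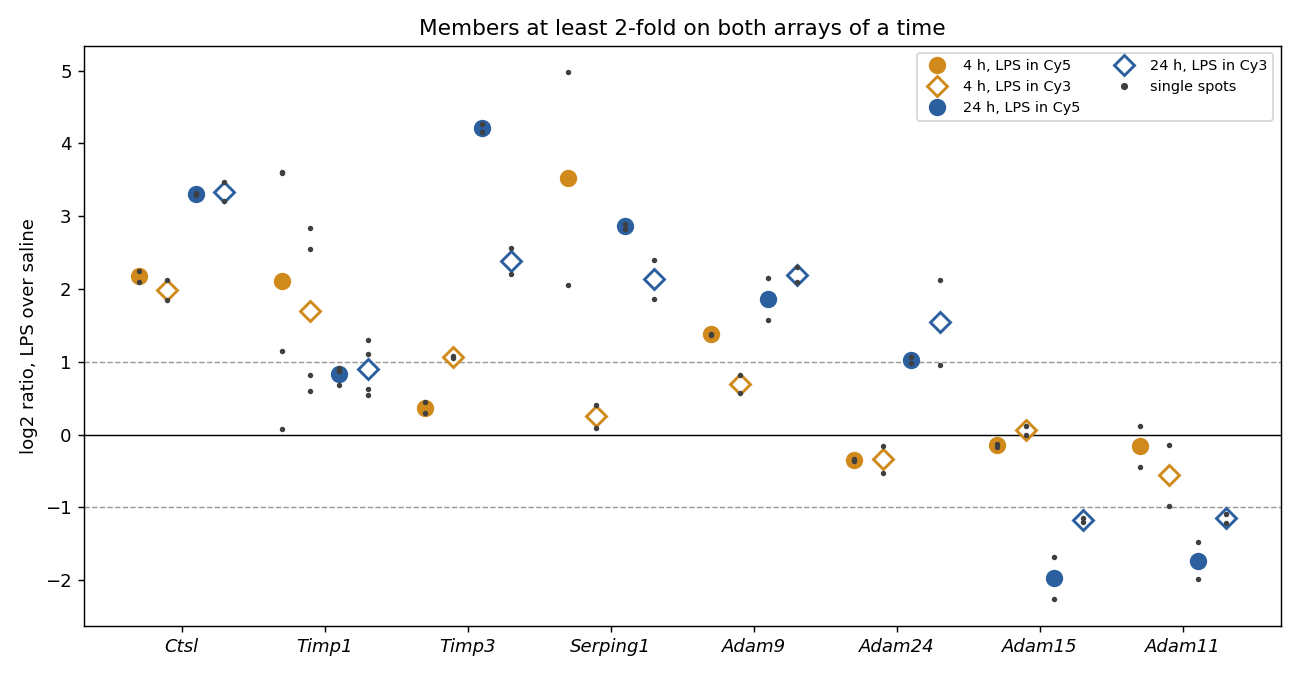
Log2 ratio of LPS over saline (y axis) of the 8 called members. Large symbols are gene values per array at 4 h (orange) and 24 h (blue), circles with LPS in Cy5 and diamonds with LPS in Cy3, and small dots are single spots. Dashed lines mark 2-fold. The spots of Ctsl lie close together, whereas those of Timp1 at 4 h form a high and a low pair on each array and those of Serping1 at 4 h spread from 0.10 to 4.98.

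Among serpins, 1 of 30 was called, at 24 h, beside 3.25% of all genes at 4 h and 7.0% at 24 h. Serping1, the C1 inhibitor that blocks the first proteases of complement and the contact system, had 3.52 and 0.25 at 4 h and 2.86 and 2.13 at 24 h. The arrays of 4 h disagreed and those of 24 h were both high. The 24 h mean was 2.50 ± 0.51, or 5.64-fold, and its rank by the smaller array value was 45 of 11138. At 4 h the mean of 1.89 ± 2.31 was not called, and on the first array its spots were at 2.06 and 4.98. Serpina3n, an acute-phase inhibitor of leukocyte serine proteases, had -0.52 and 1.51 at 4 h and 0.87 and 1.51 at 24 h and missed the call on 1 array of 24 h. Serpinb1a, an intracellular inhibitor of neutrophil proteases, had 3.29 and 0.37 at 4 h and 1.64 and 0.39 at 24 h, high on the first arrays alone.

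Of the serpins known from coagulation and fibrinolysis, those described here were not called. Serpinc1 (antithrombin) had -0.16 ± 0.17 at 4 h and 0.22 ± 0.61 at 24 h, Serpind1 (heparin cofactor II) -0.30 ± 0.00 and -0.37 ± 0.26, and Serpinf2 (alpha-2-antiplasmin) 0.04 ± 0.01 and 0.05 ± 0.76. Serpina5 (protein C inhibitor) had -0.49 and 0.33 at 4 h and 0.58 and 1.12 at 24 h. Serpinb2, an inhibitor of plasminogen activators, had -0.04 ± 0.07 and -0.02 ± 0.09. Serpinh1, a collagen chaperone without protease inhibition, had 0.07 ± 0.21 and 0.15 ± 0.05. Serpinf1 (PEDF), an anti-angiogenic serpin without protease inhibition, had 0.03 and -0.23 at 4 h and -1.91 and -0.96 at 24 h, just short of a call. Its spots of the first array at 24 h were 0.60 and -4.43, so its low value there rests on 1 spot.

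The alpha-1-antitrypsin genes, near-identical mouse paralogs whose signals may not be separable by hybridisation, had means at 24 h between -0.34 and 1.19. Serpina1a, the member fixed for naming, had -0.02 ± 0.58 at 4 h and 0.20 ± 0.05 at 24 h. Serpinb11 had -3.80 and -0.39 at 4 h, and its spots of the first array were -8.76 and 1.17. At 24 h it had 0.73 and 0.52. The 19 serpins outside the fixed names and the calls, Serpina5 among them, had means between -2.0 and 2.12 at 4 h and between -1.18 and 1.19 at 24 h, and 0 of them were called.

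No MMP was called, 0 of 18 at each time. At 3.25% of all genes called at 4 h and 7.0% at 24 h, this is near the background for a list of this size. Mmp2 (gelatinase A) had 0.71 and 0.29 at 4 h and -0.05 and -0.97 at 24 h, and Mmp9 (gelatinase B) 0.26 ± 0.37 and -0.68 ± 0.76. The 2 oligonucleotides of Mmp9 disagreed at 24 h, with means of -0.06 and -1.30. The former held ratios of exactly 1 on the second array, and the latter had spots at -1.42 and -3.31 on the first. The low 24 h value of Mmp9 thus rests mainly on 1 oligonucleotide on the first array. Mmp14, the membrane enzyme that activates pro-MMP2, had -0.03 ± 0.72 and 0.65 ± 0.01. The neutrophil collagenase Mmp8 had -0.46 and -0.04 at 4 h and 0.58 and 0.49 at 24 h. The stromelysin Mmp3 had -0.05 ± 0.09 and -0.15 ± 1.42 and the collagenase Mmp13 -0.34 ± 0.44 and -0.36 ± 0.31. Mmp11 had -0.50 ± 0.01 and 0.76 ± 1.03, and the membrane-bound Mmp24 -0.02 ± 0.48 and -1.12 ± 0.99. The other 10 MMPs had means from -0.81 to 0.74 at 4 h and from -1.86 to 0.25 at 24 h, the lowest being Mmp7 with -4.26 and 0.55 on the arrays of 24 h. The median of the family was -0.08 at 4 h and -0.31 at 24 h.

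The upstream sequence of 4 members is shown for both called TIMPs and for a pair of MMPs, the enzymes that TIMPs inhibit. Each run is the 250 bases before the annotated start, 5′ to 3′ on the strand of the gene, from RefSeq on GRCm38.p6, and capitals mark matches to the letters TGANTCA of the AP-1 element or to the interferon-stimulated element, on either strand. The window of Timp1 is chrX:20869916-20870165 (+ strand), that of Timp3 chr10:86300162-86300411 (+ strand), that of Mmp3 chr9:7445572-7445821 (+ strand) and that of Mmp13 chr9:7272264-7272513 (+ strand).
Timp1: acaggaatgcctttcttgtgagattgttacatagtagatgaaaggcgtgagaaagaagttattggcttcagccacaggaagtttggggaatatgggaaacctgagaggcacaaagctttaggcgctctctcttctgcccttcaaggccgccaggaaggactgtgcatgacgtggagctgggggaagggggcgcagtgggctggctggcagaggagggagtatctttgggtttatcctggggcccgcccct
Timp3: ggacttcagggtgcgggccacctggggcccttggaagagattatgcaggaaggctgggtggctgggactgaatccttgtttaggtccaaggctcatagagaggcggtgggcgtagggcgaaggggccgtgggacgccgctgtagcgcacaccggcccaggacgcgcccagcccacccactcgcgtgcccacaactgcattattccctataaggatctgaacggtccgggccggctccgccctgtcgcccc
Mmp3: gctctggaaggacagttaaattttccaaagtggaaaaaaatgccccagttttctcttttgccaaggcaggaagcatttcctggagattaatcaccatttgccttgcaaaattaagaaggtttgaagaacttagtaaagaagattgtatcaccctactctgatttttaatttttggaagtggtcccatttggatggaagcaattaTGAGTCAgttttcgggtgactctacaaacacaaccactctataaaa
Mmp13: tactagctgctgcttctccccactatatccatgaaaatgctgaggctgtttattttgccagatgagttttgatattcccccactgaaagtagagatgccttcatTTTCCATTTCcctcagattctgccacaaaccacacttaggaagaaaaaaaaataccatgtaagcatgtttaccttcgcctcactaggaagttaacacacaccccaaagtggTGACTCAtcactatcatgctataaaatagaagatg

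The AP-1 letters occurred in 20 of 82 windows of members (24.4%), which covered 72 of the 100 genes, and in 6.75% of all 32851 windows. By family they were in 8 of 16 MMP windows and 10 of 30 serpin windows, in 2 of 12 ADAM windows, and in 0 of 4 TIMP and 0 of 17 cathepsin windows. The 8 MMP windows belonged to Mmp1a, Mmp1b, Mmp3, Mmp7, Mmp10, Mmp12, Mmp13 and Mmp20, neighbours on mouse chromosome 9. Of the 19 members with these letters, 0 were called at 4 h and 0 at 24 h, which at 3.25% and 7.0% of all genes is near the background for a list of this size. STAT letters TTCNNNGAA were in 8 of 82 member windows and 7.02% of all windows, the interferon-stimulated letters in 4 of 82 and 2.98%, C/EBP letters TTGCGNAA in 1 of 82 and 0.67%, and NF-kB letters in 0 of 82 and 0.356%. Of the 8 called members, 4 had a window in the table, Ctsl, Timp1, Timp3 and Adam15, and these windows held none of the 5 motifs searched. The window of Ctsl ends as introns do and may not be its promoter. A match of letters is a description and not a binding site, and its absence says only that these letters are not in this window.

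ADAMs are membrane-anchored metalloproteinases, known for shedding growth factors, cytokines and adhesion molecules. Of 22 ADAM genes, 0 were called at 4 h, and 2 were higher and 2 lower at 24 h. The 4 calls are 18.2% of the family, against 7.0% of all genes, and the difference between these shares was not tested. Adam9, which can shed growth factor precursors, had 1.38 and 0.69 at 4 h and 1.87 and 2.20 at 24 h. It was high on all arrays, and the second array of 4 h alone fell short of 2-fold. The means were 1.03 ± 0.48, or 2.05-fold, and 2.03 ± 0.23, or 4.09-fold, and its spots of 24 h ran from 1.58 to 2.30. With scale or quantile normalization of the arrays, Adam9 was called at 4 h too.

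Adam15, known from endothelial junctions, had -0.15 and 0.06 at 4 h and -1.97 and -1.17 at 24 h. The arrays of 4 h were near 0 and those of 24 h both low, with a mean of -1.57 ± 0.57. Adam11, a neural member without protease activity, had -0.16 and -0.56 at 4 h and -1.73 and -1.15 at 24 h, with a mean of -1.44 ± 0.41 at 24 h. All spots of both genes were at least 2-fold lower at 24 h, but neither remained called with scale normalization. Adam24, known in the mouse from testis, had -0.35 and -0.34 at 4 h and 1.02 and 1.54 at 24 h, with a mean of 1.28 ± 0.36. Its call at 24 h was the weakest, with spots from 0.95 to 2.13, and it was lost with scale and with quantile normalization.

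The sheddases of tumour necrosis factor and Notch were not called. Adam17, which releases tumour necrosis factor and L-selectin, had -0.15 ± 0.18 at 4 h and 0.58 ± 0.59 at 24 h, and Adam10 0.19 ± 0.53 and -0.18 ± 0.75. Adam8, a leukocyte ADAM, had 0.01 ± 0.24 and 0.06 ± 0.71. Among the ADAMTS genes, the aggrecanase Adamts1, which also restrains vessel growth, had 0.45 and 1.25 at 4 h and 0.36 and 0.85 at 24 h, above 0 on all 4 arrays. Adamts5 had 0.35 ± 1.76 and -0.36 ± 0.23, and Adamts8 0.39 ± 0.23 and 1.19 ± 0.90. On the second array of 24 h alone Adamts8 was at 0.56, with spots at 3.45 and -2.34. The ADAMTS-like gene Adamtsl1 had -0.03 ± 0.37 at 4 h and -1.85 and -0.77 at 24 h. All 3 ADAMTS-like genes lay below 0 on both arrays of 24 h, as did 2912 of all 11138 genes, which was not tested.

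Inhibitors and proteases were set side by side. At 4 h the median over the 34 inhibitors was 0.01 and that over the 66 protease-family genes -0.03, beside -0.02 over all genes. At 24 h it was 0.20 for inhibitors and -0.16 for protease-family genes, beside -0.02 over all genes. On the first and second array of 24 h alone, the medians were 0.17 and 0.23 for inhibitors and 0.02 and -0.14 for protease-family genes. The order of the medians was thus the same on both arrays of 24 h, and the protease median changed sign with the array. At 4 h the array medians were 0.020 and 0.017 for inhibitors and 0.025 and -0.13 for protease-family genes, so the order differed between the arrays. Called higher at 24 h were 2 of 34 inhibitors and 3 of 66 protease-family genes, against 3.48% of all genes, and called lower were 0 and 2, against 3.52%.

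**Figure D3:**
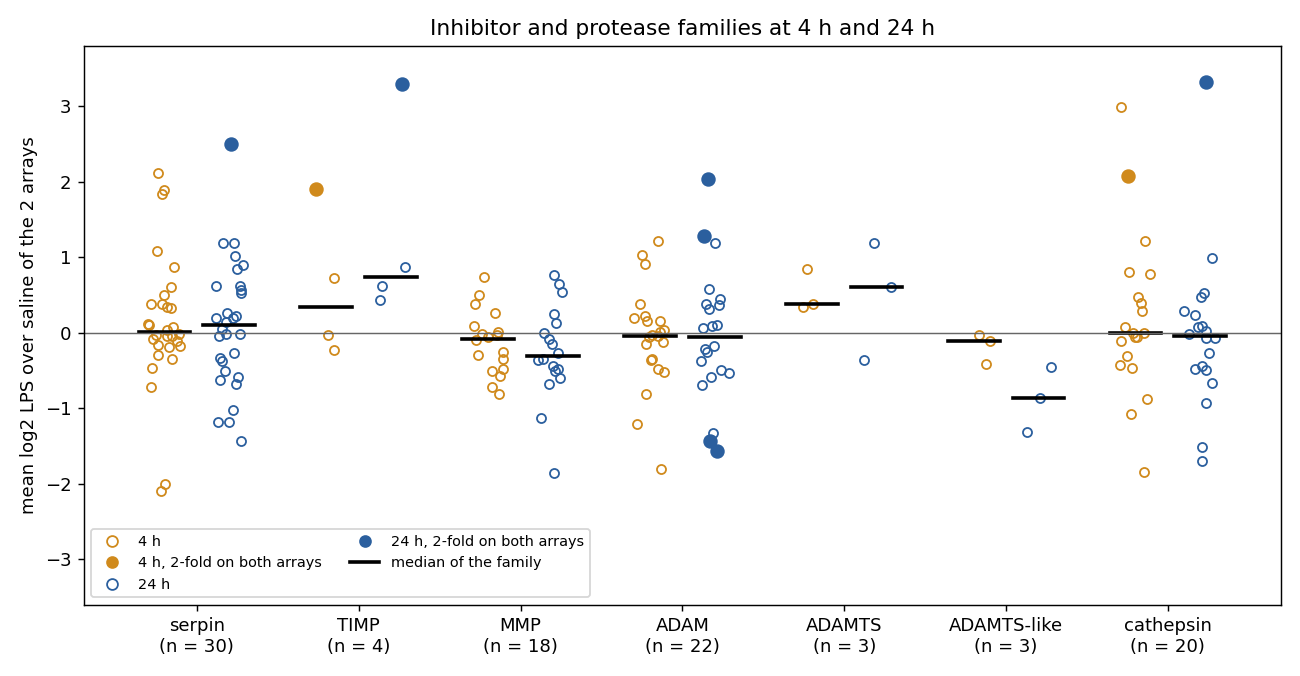
Mean log2 ratio of LPS over saline of the 2 arrays (y axis) for each member, by family (x axis), at 4 h (orange) and 24 h (blue). Filled points are members at least 2-fold on both arrays, and bars are medians of the family. Most points lie within 1 log2 unit of 0 at both times, and the highest open points of cathepsins and serpins at 4 h, Cts3 and Serpinb9b, come from the first array.

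Many members were far from 0 on 1 array alone. On the first array of 4 h, 11 members lay at least 4-fold from 1 while the second array stayed within 2-fold, and 9 of these 11 had spots more than 2 log2 units apart. The same held for 6.40% of all genes on that array. They included the placental cathepsin Cts3 with 5.97 and 0.00, whose spots on the first array were 9.83 and 2.11, Serpinb9b with 4.89 and -0.66, and Adam5 with 2.71 and -0.27, where 1 of 4 spots stood at 9.96. On the second array of 4 h, 0 members did so, against 1.17% of all genes. At 24 h, 4 did on the first array, against 4.96% of all genes, and 2 on the second, against 4.76%. Duplicate spots of an oligonucleotide lay within 0.5 log2 units on both arrays for 48 of 105 member oligonucleotides at 4 h (45.7%) and 31 at 24 h (29.5%), close to the 42.6% and 30.2% over all named oligonucleotides.

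Members known from testis or placenta and not from endothelium give a view of this scatter, in lists drawn up after the values were seen. The 10 testis ADAMs varied over genes with SDs of 1.5 and 0.59 at 4 h and 0.88 and 0.89 at 24 h, and 1 of them, Adam24, was called. The 8 placental cathepsins had SDs of 2.72 and 0.44 at 4 h and 1.39 and 0.39 at 24 h, and 0 were called. Over the other 82 members the SDs were 1.27 and 0.60 at 4 h and 1.28 and 0.97 at 24 h. Of these, 2 were called at 4 h and 6 at 24 h. Over all genes, 3.25% were called at 4 h and 7.0% at 24 h. The ratios carry no signal level, so whether a gene was expressed cannot be read from them.

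The times were compared by the difference of means, and a call needed 2-fold between the means with the 24 h arrays entirely above, or entirely below, those of 4 h. Of the members, 9 were higher and 11 lower at 24 h, 20 in all, against 19.8% of all genes (9.43% higher, 10.3% lower), which gives the members no excess. Beside Ctsl, Timp3 and Adam24, those higher at 24 h were Serpinb11 by 2.72, Mmp11 by 1.26, Adam18 by 1.18, Adam25 by 1.16, and Ctsa and Ctsq by 1.00 each. Spots of several disagreed at 24 h. Mmp11 had 3.72 and -0.73 on the first array. On the second, Adam18 had 2.05 and -0.45 and Adam25 had 0.06 and 3.86. Ctsq held 3 ratios of exactly 1 among its 8 values. Beside Timp1, by 1 of its 2 oligonucleotides, Adam15 and Adam11, those lower were Ctsm with a difference of -2.50 and Adam2 with -2.24. Also lower were Adam5 with -1.75, Serpinf1 with -1.33, Ctsj with -1.33, Adamtsl1 with -1.28, Mmp24 with -1.10 and Mmp2 with -1.01. On the second array Ctsm held ratios of exactly 1 at both times, set apart by centring alone. Its separation there was not measured, although the counts include it. For Adam5, 1 of 4 spots stood at 9.96 on the first array of 4 h. Its other oligonucleotide gave 0.22 at 4 h and 0.11 at 24 h. At 24 h, Mmp24 had spots at -0.02 and -3.63 on the second array, and Adamtsl1 at 0.02 and -3.73 on the first. Adam2, a sperm surface protein, had 0.68 and 1.14 at 4 h and -1.93 and -0.74 at 24 h, and its spots of 24 h ran from -4.0 to 0.74. The testis ADAMs and placental cathepsins made up 8 of the 20 calls and 18 of the 100 members. The sources used here do not say if the 4 h and 24 h arrays drew on the same saline RNA.

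**Figure D4:**
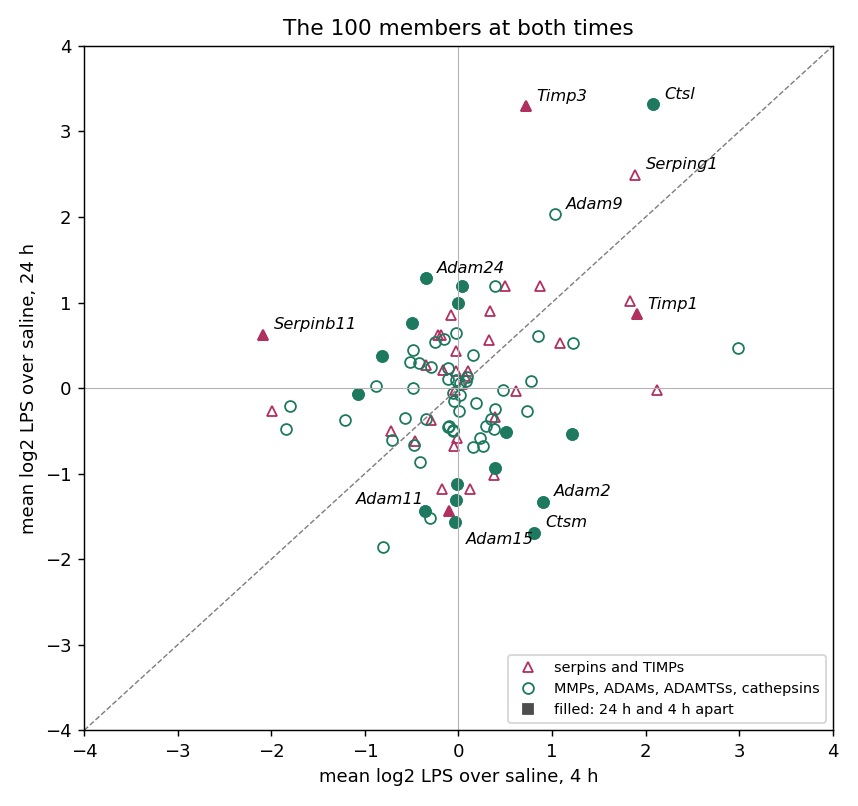
Mean log2 ratio of LPS over saline at 4 h (x axis) and at 24 h (y axis) of the 100 members, triangles for inhibitors and circles for protease-family genes. Filled symbols differ between the times by at least 1 log2 unit with separated arrays, and the dashed line marks equal values. Ctsl, Serping1, Adam9 and Timp1 are above 0 at both times, and Timp3 stands at 3.30 at 24 h.

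Other genes of the same systems were taken from lists. Few were called, near or below the shares of all genes, 3.25% at 4 h and 7.0% at 24 h. Of 27 measured genes of the plasminogen and coagulation system, 0 were called at 4 h and 1 at 24 h, thrombomodulin (Thbd) at -1.64 ± 0.69. Another 4 of the 27 passed 2-fold at 24 h with arrays of opposite sign, a larger share than the 3.69% of all genes. The arrays of 24 h lay on the same side of 0 for 37.0% of this list, against 52.3% of all genes. The urokinase gene Plau had 0.78 ± 0.58 at 4 h and 0.09 ± 0.13 at 24 h, and its receptor Plaur 0.76 ± 0.06 and 0.34 ± 1.24. Of 26 other protease inhibitors, Cst3 was lower at 4 h and Stfa3 lower at 24 h. Cst3 encodes cystatin C, a secreted inhibitor of cysteine cathepsins including cathepsin L, and had -2.13 and -1.67 at 4 h and 0.85 and 0.21 at 24 h, all spots of 4 h being at least 2-fold lower. Stfa3, a stefin, had -3.61 and -1.48 at 24 h. Of 31 other extracellular and lysosomal proteases, 0 were called at either time. The medians of these lists were 0.05, -0.10 and -0.08 at 4 h and -0.18, -0.13 and -0.07 at 24 h.

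Markers of other cells that carry proteases were read beside these values. Of 14 measured neutrophil markers, 0 were called at 4 h, and 3 were higher and 1 lower at 24 h, S100a8 at 2.59 ± 1.17, S100a9 at 1.55 ± 0.08, Fpr2 at 1.20 ± 0.08 and Ngp at -1.62 ± 0.82. These are 28.6% of the list, against 7.0% of all genes. The list's median was -0.10 at 24 h, with Mmp8, Mmp9 and Ctsg among its members. Of 15 monocyte and macrophage markers, 1 was called, Coro1a, at 2.73 ± 1.70 at 24 h, and the medians were -0.18 at 4 h and -0.26 at 24 h. Of 10 fibroblast markers, from a cell type known to make TIMPs, 0 were called at 4 h, and Vim, Mgp and Fstl1 were higher at 24 h, at 2.04 ± 0.48, 1.80 ± 0.91 and 1.32 ± 0.20. Of 15 endothelial markers, Cldn5 was higher and Kdr and Eng lower at 4 h, and Kdr, Eng and Gpihbp1 were higher at 24 h, with list medians of 0.01 and 0.54. No mast cell, lymphocyte or platelet marker was called at either time, of 9, 10 and 4 measured. Of 7 hepatocyte markers, from the main source of plasma serpins, Ahsg was lower at 4 h and higher at 24 h, at -2.47 ± 0.98 and 2.76 ± 0.85, and Apoa2 was lower at 4 h, at -1.14 ± 0.18. Of 8 smooth muscle and pericyte markers, Actg2 was higher at 4 h and lower at 24 h, at 2.18 ± 0.58 and -2.42 ± 1.47. Of 12 cardiomyocyte markers, Ryr2 was lower at 24 h, at -1.40 ± 0.11. The neutrophil list was not alone in its share of calls. At 24 h, 30.0% of fibroblast, 20.0% of endothelial, 14.3% of hepatocyte and 12.5% of smooth muscle and pericyte markers were called. Cardiomyocyte markers had 8.33% and monocyte and macrophage markers 6.67%. At 4 h the shares were 28.6% for hepatocyte, 20.0% for endothelial and 12.5% for smooth muscle and pericyte markers, against 3.25% of all genes. These lists are small, and the shares were not tested. A ratio gives no level, so the presence of these cells could not be checked, and fewer cells of a type cannot be told apart from less RNA per cell. The part of other cells in the values of Timp3, Serping1 and Ctsl was not tested.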

How the data were processed

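The deposited table gives log2 ratios of the 2 channels for 32448 spots on each of 4 arrays. Background correction, dye normalization and spot filters are steps not given in the sources that were used, and the dyes are named per the labels. Each deposited array had a median of 3e-07. The number of arrays limits the precision, and no intensity is given. Signs of arrays with LPS in Cy3 were turned, a choice made after the data were seen. Gene values are means over oligonucleotides, each the mean of its adjacent spots, and arrays were centred on the median over genes. Symbols came from the platform annotation (24344 spots with 1 symbol); 24076 spots matched RefSeq by gene identifier, and 0 symbols changed. All 210 member spots matched. The deposited log2 ratios were used with Python 3.11.15, pandas 2.3.3, and limma 3.58.1 in R 4.3.3 for an alternative that took arrays as separate samples, with Benjamini-Hochberg adjustment over all genes. The calls and limma were tested on simulated data.

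The members and the lists were chosen with earlier results of these data known. Members given with values were all called members, all called between the times, and 41 fixed names, of which 35 were measured. Others named were chosen after their values were seen. Array error was read from genes that passed 2-fold in opposite directions. Alternatives were scale and quantile normalization, no centring, spots with a ratio of exactly 1 left out (2.38% to 7.62% of member spots per array), medians over spots, a 1.5-fold threshold, agreement of all spots, signs not turned, limma, and each array alone. Promoter letters came from RefSeq, GRCm38.p6. The window of Ctsl is not printed, because it ends in a pyrimidine-rich run and AG as introns do. No oligonucleotide sequences were used here.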

Additional observations from a re-analysis of the deposited data

Results flagged for a closer look

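For 11 of the 49 members given with values, both arrays of 24 h lay on one side of 0 and both of 4 h on the other, which was not tested. The 49 include every member called between the times, a choice that raises this count, so it cannot be set against a share of all genes. Over all genes this held for 12.3%, and over the 100 members for 17 (17.0%). Higher at 24 h than at 4 h were Serpinb11 by 2.72 log2 units, Adam24 by 1.63, Mmp11 by 1.26, Timp2 by 0.84, Mmp8 by 0.79 and Adam17 by 0.73. Lower at 24 h were Ctsm, with a difference of -2.50, Adam2 with -2.24, Ctsj with -1.33, Mmp2 with -1.01 and Mmp9 with -0.94. The Mmp9 difference came mostly from 1 of its 2 oligonucleotides. Spots of others fell on both sides of 0. Serpinb11 had -8.76 and 1.17 on the first array of 4 h and Mmp11 3.72 and -0.73 on the first of 24 h. Adam2 had spots from -4.0 to 0.74 at 24 h, and Ctsj had -0.01 and 0.03 on the second array of 4 h. On the second array of 4 h, Mmp9 and Ctsm lay at 0.00, and Ctsm at 24 h held ratios of exactly 1 on the second array, moved to -0.06 by centring alone, so the side of 0 was not measured there. The counts over all genes and members include such cases. Of these 11, Adam24 at 24 h was the 1 that was 2-fold on both arrays of a time.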

How the results depend on the processing

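Ctsl and Timp1 kept their calls at 4 h, and Ctsl, Timp3, Serping1 and Adam9 theirs at 24 h, under scale and quantile normalization. They also kept them without centring, with medians over spots and without ratios of exactly 1. These settings could hardly change the calls, save the median over spots for Timp1. Centring moved arrays by at most about 0.063, and none of these genes held a ratio of exactly 1. For the genes other than Timp1, with 1 oligonucleotide of 2 spots each, the median over spots equals the mean. With every spot required, Timp1 was lost. Keeping a call at 1.5-fold or on 1 array follows from the definition of a call. The members called at 4 h (2) became 4 with scale or quantile normalization, 1 with every spot 2-fold, 6 at 1.5-fold, and 11 to 21 on each array alone. Those at 24 h (7) became 4 with scale normalization, 15 at 1.5-fold, 2 of 31 with agreeing spots (an alternative added after seeing the data), and 21 to 29 on each array alone. With signs not turned, 0 members were called at either time. Over all genes, the 362 calls of 4 h became 557 with scale and 561 with quantile normalization (328 higher and 233 lower, against 251 and 111), 175 with every spot (139 higher and 36 lower), 941 at 1.5-fold (550 higher and 391 lower), 158 unturned (87 higher and 71 lower), 158 with agreeing spots, and 1414 to 2317 on each array alone. The 780 of 24 h became 424, 406, 1808, 411 and 386 with scale, every spot, 1.5-fold, unturned and agreeing spots, and 3239 to 3408 on each array alone. limma with arrays as separate samples gave 0 members and 0 genes at an adjusted p under 0.05 at 4 h, at 24 h and, for members, between the times. Its unadjusted p was under 0.05 for 3 members and 475 genes at 4 h, 10 and 1126 at 24 h, and 4 members between the times. The 20 members that differed between the times became 31 without the separation of arrays and 21 to 45 on each array alone. The inhibitor median of 4 h, 0.01, was 0.039, 0.045, 0.052 and 0.0046 with scale, quantile, no ratios of exactly 1 and no centring, and 0.017 to 0.020 on each array alone; that of 24 h, 0.20, was 0.15 with scale and 0.17 to 0.23 on each array alone. The protease median of 24 h ran from -0.14 to 0.025 and that of 4 h from -0.13 to 0.025 on each array alone. Of 488 values of the members given with values, recomputed under another normalization, centring, spot median or without ratios of exactly 1, 453 moved by less than the SD of the arrays and 35 by more, and none of the called ones changed sign. Single arrays are left out of that count, since the mean of 2 always lies within their SD of each. The count still holds settings that could hardly move a value. The spot median equals the mean for members with 1 oligonucleotide, and many members held no ratio of exactly 1. The cause of these changes was not tested. No paired analysis was possible because the labels give no replicate numbers and the arrays of a time count as 1 replicate. With no intensities, weak and strong spots cannot be told apart.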

Other observations

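Values of exactly 1 were less frequent among member spots, 2.38% to 7.62% of 210 spots per array, than among all spots, 10.2% to 13.4% of 32448. Whether these ratios were measured or filled in is unknown. Serpinb9b held 5 such values of its 8, and Cts3, Ctsm and Serpinb9g 4 of 8 each. Over the 100 members, the values of the arrays of a time correlated across genes at 0.10 at 4 h and 0.35 at 24 h, beside 0.12 and 0.12 over all genes, and genes are not independent replicates.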
